A study of Homo sapiens with 4 samples.

Results

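Collagen genes were followed through 4 stages of blood formation in culture, starting from H1, a line of human embryonic stem cells. The members were all rows of the expression tables whose symbol is COL, a type number, A and a chain number, and 43 of the 17630 genes analysed matched. The stages, in order of time, were undifferentiated H1 cells (hESC), cells with the apelin receptor APLNR from day 2 (MES, the mesoderm stage), cells with CD31 and CD34 from day 4 (HEP) and cells with CD31 and CD43 from day 7 (HPC). The culture took place in Custom mTeSR1 medium, with activinA at 40 ng/ml and BMP4 at 50 ng/ml for the first 2 days, then VEGF at 40 ng/ml and bFGF at 50 ng/ml for 2 days, then the same VEGF and bFGF for 3 days together with SB-431542, which blocks receptors for activin, NODAL and TGF-beta. All cells were of 1 line, no genetic change is named in the labels, and a sort is stated for the later 3 stages and not for hESC. Each stage was 1 library, so stages could not be tested against each other and neither a value nor a difference has a replicate check. Sequencing depth is unknown. Values are the deposited normalised expression values. The processing notes name RSEM, whose FPKM and TPM measures are both per transcript length; which of these was deposited is not stated, and levels of different genes are compared on the reading that they are per length.

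Collagens are secreted or membrane-bound proteins made of 3 chains wound into a triple helix, in which glycine recurs after each pair of other residues. Fibrillar collagens (types I, II, III, V, XI, XXIV and XXVII) form the cables of connective tissue, type IV forms the sheet of basement membranes, type VI forms beaded filaments around cells, and fibril-associated collagens such as types IX and XIV sit on the surface of fibrils. In the embryo, gastrulating mesoderm lays down and remodels matrix, and vessels are built on a basement membrane rich in type IV collagen.

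The glycine repeat can be read in the coding sequences. The first 18 codons of the longest unbroken repeat are shown for a fibrillar chain of type I, a fibrillar chain of type V and a type IV chain, the families that the results turn on, from GENCODE 29 transcripts (GRCh38) of genes on chromosomes 7, 2 and 13, with glycine codons in capitals.
COL1A2, coding bases 271 to 324: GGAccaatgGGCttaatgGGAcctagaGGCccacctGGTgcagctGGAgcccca
COL5A2, coding bases 637 to 690: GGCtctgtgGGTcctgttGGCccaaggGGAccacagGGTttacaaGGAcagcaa
COL4A1, coding bases 127 to 180: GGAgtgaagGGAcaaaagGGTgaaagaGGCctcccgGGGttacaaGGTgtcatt
In each, a glycine codon follows each pair of other codons. The longest unbroken repeat was 339 triplets in COL1A2 and in COL5A2, against 40 triplets in COL4A1, whose 437 triplets were spread over 22 stretches of at least 5. Glycine made up 27.9% of the residues encoded by COL1A2, 26.8% of those of COL5A2 and 28.6% of those of COL4A1. All glycine codons start with GG, and the transcripts of the 23 members at 5 or more in any library had a median GC content of 55.9% (lowest 46.5%, highest 67.5%), against a median of 50.7% over the 8141 genes with a known GC content at 5 or more. The libraries differed along GC content. For the 6366 genes averaging at least 5, Spearman's rho between GC content and the log2 difference was 0.22 for MES against hESC, 0.71 for HEP against MES, -0.43 for HPC against HEP and 0.53 for HPC against hESC. Over the 23 members, which were chosen by 5 or more in any library and not by their average, rho was 0.23, -0.12, -0.22 and 0.09. With so few genes these values do not show that the members are free of the trend. These are correlations across genes of the same pair of libraries, given as a description. Calls are also given with each library's trend with GC content removed.

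Of the 43 members, 23 reached 5 or more in any library, 9 lay between 1 and 5 at their highest, 9 stayed under 1, and COL10A1 and COL28A1 were listed at 0 in all 4 libraries. The values of all members summed to 281.6 in hESC and 1306.7 in MES, and 1379.4 in HEP and 526.7 in HPC. As a share of the sum over all genes this was 0.066%, 0.36%, 0.45% and 0.149%, so the share was lowest in hESC. The order of the MES and HEP sums depended on the scaling, as given with that comparison. Few genes carried these sums. COL18A1 was the highest member in hESC (64.1), COL5A2 in MES (436), COL1A2 in HEP (235) and COL18A1 again in HPC (112), and the 5 highest members made up 57.8%, 72.2%, 63.9% and 63.9% of the collagen sum in the same order. At 436, COL5A2 was the 148th highest of all genes in MES.

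**Figure D1:**
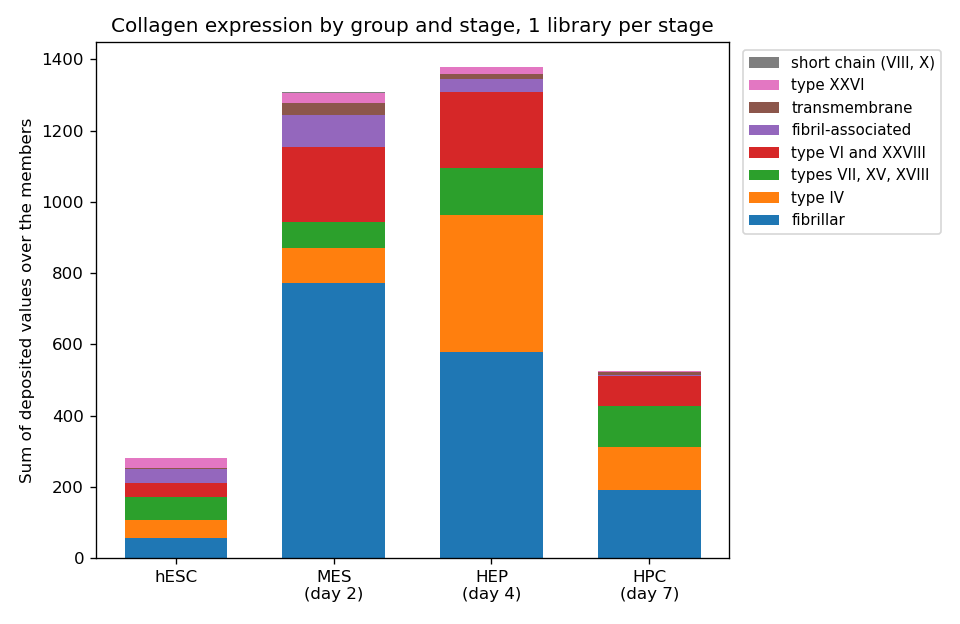
Sum of the deposited values over all 43 collagen genes in each library, stacked by collagen group, with stages in order of time on the x axis and 1 library per bar. The bars reach 281.6 in hESC and 1306.7 in MES, and 1379.4 in HEP and 526.7 in HPC, and the fibrillar part is the largest in MES, HEP and HPC.

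The makeup of the collagen sum differed between libraries. Fibrillar genes made up 19.6% of it in hESC and 59% in MES, and 41.9% in HEP and 36.2% in HPC. Type IV genes made up 18.1%, 7.54%, 28% and 23.1%, so their share was lowest in MES. Types VII, XV and XVIII, nearly all of it COL18A1, made up 23.3%, 5.58%, 9.58% and 21.8%. The 6 genes of type VI and XXVIII stayed between 14.1% and 16.3% in all 4 libraries. Fibril-associated genes made up 13.5% in hESC and 6.79% in MES, and 2.68% in HEP and 0.647% in HPC.

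The 23 members at 5 or more were highest in different libraries: 2 in hESC and 9 in MES, and 8 in HEP and 4 in HPC. Over all 8174 genes at 5 or more in any library, 45.4% were highest in hESC and 21.1% in MES, and 18.5% in HEP and 15.1% in HPC, against 8.7%, 39.1%, 34.8% and 17.4% of the members. The members highest in hESC were COL9A1 and COL14A1, both fibril-associated. Those highest in MES were COL5A1, COL5A2, COL11A1, COL6A1, COL9A2, COL9A3, COL13A1, COL23A1 and COL26A1, and those highest in HEP were COL1A1, COL1A2, COL4A1, COL4A2, COL4A6, COL6A2, COL18A1 and COL25A1. COL2A1, COL3A1, COL4A5 and COL6A3 were highest in HPC. Some highest values stood close to those of another library, such as COL26A1 at 29.3 in MES and 26.0 in hESC. With the GC trend removed COL6A2 stood at 102 in HEP and 98.9 in MES. In the same values COL18A1 was highest in HPC (112, against 102 in HEP). With median-of-ratios scaling, which sets the libraries to a common median ratio, COL5A1 was highest in HEP. The other 22 kept their library in each case, near ties included. The shares of all genes moved more. From hESC to HPC they were 32.6%, 15.7%, 28.9% and 22.7% with median-of-ratios scaling, against 8.7%, 34.8%, 39.1% and 17.4% of the members. With the GC trend removed they were 31.7%, 23.4%, 19.7% and 25.2%, against 8.7%, 39.1%, 30.4% and 21.7% of the members, so the members' share in HPC was above that of all genes as deposited and below it in both alternatives.

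**Figure D2:**
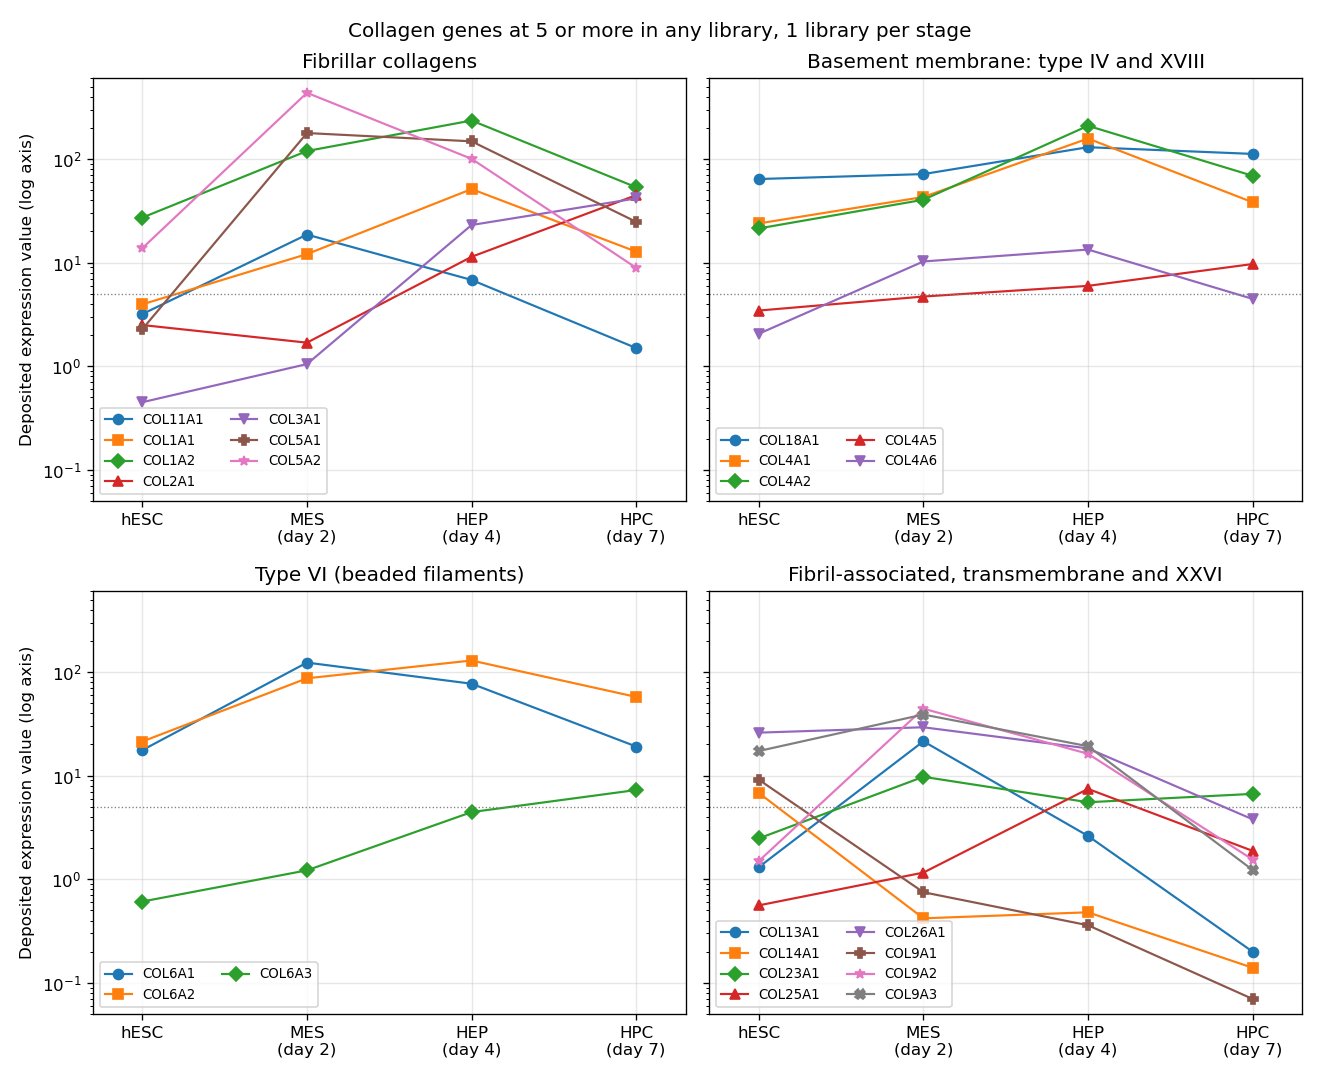
Deposited expression values (log axis) of the 23 collagen genes at 5 or more in any library, by stage, in panels by collagen group; each point is 1 library and the dotted line marks 5. COL5A1 and COL5A2 stand highest in MES, COL4A1 and COL4A2 in HEP, and COL2A1 and COL3A1 in HPC.

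The type V chains, which nucleate fibrils and set their width, had the largest differences of any members in MES. COL5A1 stood at 2.28 in hESC and 178 in MES, and 148 in HEP and 24.8 in HPC. COL5A2 stood at 13.8, 436, 100 and 8.92 in the same order. Both were thus low in hESC and high in MES, and COL5A1 kept a similar level in HEP where COL5A2 did not. The level of COL5A1 in MES was 78.1 times that in hESC, and that of COL5A2 was 31.6 times. COL5A3, the remaining chain of the type, stayed between 0.03 and 0.15.

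Type I collagen, the main collagen of bone, skin and tendon, was highest in HEP. COL1A2 stood at 27.2 in hESC and 120 in MES, and 235 in HEP and 53.4 in HPC. COL1A1 stood at 3.96, 12.1, 51.3 and 12.8 in the same order. Both chains were higher in MES than in hESC and lower in HPC than in HEP. COL3A1, which forms a collagen of its own in vessel walls and other elastic tissue, stood at 0.45 in hESC and 1.05 in MES, and 23.1 in HEP and 41.7 in HPC. COL2A1, the main collagen of cartilage and of the notochord, stood at 2.50, 1.69, 11.4 and 44.8. These 2 genes were the only fibrillar members at 5 or more whose value in HPC was above that in HEP. COL11A1, a relative of the type V chains found in cartilage fibrils, stood at 3.19, 18.7, 6.81 and 1.5. Of the other fibrillar chains, COL27A1 reached 2.75 in MES, COL24A1 reached 2.19 in HPC and COL11A2 reached 1.16 in MES.

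The type IV genes differed by chain pair. COL4A1 and COL4A2, which together form the main network of nearly all basement membranes, were highest in HEP. COL4A1 stood at 23.9 in hESC and 43.0 in MES, and 158 in HEP and 38.3 in HPC, and COL4A2 at 21.4, 40.5, 209 and 68.9. The chains stayed within a factor of 1.8 of each other in every library. COL4A5 and COL4A6, a pair of chains on the X chromosome, were lower and went separate ways. COL4A5 stood at 3.45, 4.71, 5.97 and 9.70 from hESC to HPC, whereas COL4A6 stood at 2.06, 10.3, 13.4 and 4.47. COL4A3 and COL4A4, known from the filter of the kidney, stayed at or under 0.18.

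In the genome these 6 genes lie in 3 pairs, each pair head to head. In the RefSeq promoter windows (GRCh38.p14) the annotated starts of COL4A1 and COL4A2 had 126 bases between them, those of COL4A4 and COL4A3 had 418, and those of COL4A6 and COL4A5 had 379 for the nearer of the 2 COL4A6 starts. The stretch shared by COL4A1 and COL4A2, the pair with the highest levels, is shown on the plus strand, chr13:110307034-110307333 (GRCh38.p14), with the bases between both starts in capitals; COL4A1 is read to the left of them and COL4A2 to the right.
COL4A1 and COL4A2: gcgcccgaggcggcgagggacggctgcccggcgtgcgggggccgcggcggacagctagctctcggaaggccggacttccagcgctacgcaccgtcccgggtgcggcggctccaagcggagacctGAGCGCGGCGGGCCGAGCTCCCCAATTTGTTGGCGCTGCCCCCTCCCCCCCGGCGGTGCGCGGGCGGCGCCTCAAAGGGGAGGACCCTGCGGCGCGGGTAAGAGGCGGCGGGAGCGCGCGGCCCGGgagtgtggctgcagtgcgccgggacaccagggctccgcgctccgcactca
The COL4A2 window was 77.7% G and C, against a median of 58.7% over all 35116 windows in the table. COL4A2 over COL4A1 lay between 0.895 and 1.80 in the 4 libraries. In the X-linked pair COL4A5 over COL4A6 was 1.67 in hESC and 0.459 in MES, and 0.446 in HEP and 2.17 in HPC. COL4A3 and COL4A4 were too low in every library for a ratio.

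COL18A1, a basement membrane collagen that carries heparan sulphate and ends in the endostatin fragment, was at a high level throughout, with 64.1 in hESC and 71.6 in MES, and 130 in HEP and 112 in HPC. It was the least variable of the 23 members, the highest value being 2.03 times the lowest. COL15A1, its close relative, reached 1.45 in HEP, and COL7A1, which forms anchoring fibrils under epithelia, reached 1.71 in HPC. COL13A1, a transmembrane collagen of cell adhesions and the neuromuscular junction, stood at 1.31, 21.5, 2.62 and 0.20 from hESC to HPC, so it was high in MES and in no other library. COL23A1, also transmembrane, stood at 2.48, 9.75, 5.54 and 6.67, and COL25A1, a transmembrane collagen known from the nervous system, at 0.56, 1.16, 7.45 and 1.88. COL17A1, the collagen of hemidesmosomes, stayed at or under 0.61.

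Type VI genes gave 1 chain apart from the others. COL6A1 stood at 17.6 in hESC and 123 in MES, and 77.1 in HEP and 19.1 in HPC, and COL6A2 at 21.4, 87.0, 129 and 57.5. COL6A3, the long chain that joins them in the type VI molecule, stood at 0.61, 1.22, 4.45 and 7.27. Its values were below those of both partners in every library and highest in HPC, where theirs were lower than in HEP. COL6A6, a chain related to COL6A3, reached 1.09 in MES and was listed at 0 in hESC, and COL6A5 stayed at or under 0.10. COL6A1 and COL6A2 are neighbours on chromosome 21. The COL6A2 window is shown, chr21:46097862-46098161 (GRCh38.p14), plus strand, beside that of COL5A1, the member with the largest difference in MES, chr9:134641553-134641852, plus strand. Capitals mark GC boxes (GGGCGG, bound by SP1 and its relatives) on either strand, the TATA box (TATAAA) and, where present, the CCAAT box.
COL6A2: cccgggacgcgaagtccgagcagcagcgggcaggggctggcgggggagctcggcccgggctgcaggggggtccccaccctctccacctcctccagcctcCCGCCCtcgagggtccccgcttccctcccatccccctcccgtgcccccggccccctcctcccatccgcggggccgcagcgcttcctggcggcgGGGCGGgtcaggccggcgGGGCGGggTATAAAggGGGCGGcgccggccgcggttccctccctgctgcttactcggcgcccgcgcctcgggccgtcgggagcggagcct
COL5A1: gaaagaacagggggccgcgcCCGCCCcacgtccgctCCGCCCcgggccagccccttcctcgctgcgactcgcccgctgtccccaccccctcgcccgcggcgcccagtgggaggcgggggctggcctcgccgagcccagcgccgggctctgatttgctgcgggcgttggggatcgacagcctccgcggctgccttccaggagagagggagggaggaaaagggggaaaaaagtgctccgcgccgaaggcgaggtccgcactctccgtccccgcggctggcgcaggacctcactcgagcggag
The COL6A2 window held 4 GC boxes and a TATA box that starts 32 bases before the annotated start, and the COL5A1 window held 2 GC boxes and neither of the other motifs. Among the 35116 windows of 300 bases (250 before to 50 after a start), GGGCGG was found on either strand in 45%, CCAAT in 34.6% and TATAAA in 11.5%. Windows were at hand for 32 members, some with several starts, and of their 44 windows 54.5% held GGGCGG, 31.8% CCAAT and 18.2% TATAAA. A match of letters is a description and no evidence of a site in use.

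The fibril-associated collagens split by chain as well. COL9A2 and COL9A3, 2 chains of the type IX collagen that coats cartilage fibrils, stood at 44.3 and 38.9 in MES, and at 1.5 and 17.3 in hESC. In HEP they stood at 16.3 and 19.2, and in HPC at 1.55 and 1.23. COL9A1, the remaining chain of the type IX trimer, went the other way, with 9.14 in hESC and 0.75 in MES, and 0.36 in HEP and 0.07 in HPC. COL14A1, which binds type I fibrils, was likewise at 6.81 in hESC and at or under 0.48 in the sorted libraries. COL16A1 reached 3.89 in MES and COL21A1 1.25 in hESC, and COL12A1, COL19A1 and COL20A1 stayed at or under 0.26. COL26A1, a short collagen outside these classes, stood at 26.0, 29.3, 18.3 and 3.79 from hESC to HPC. Of the short chain collagens COL8A2 reached 1.46 in hESC and COL8A1 stayed at or under 0.36.

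Chains that share a molecule could be set against each other within a library, which no scaling of whole libraries can alter. COL5A2 over COL5A1 was 6.05 in hESC and 2.44 in MES, and 0.678 in HEP and 0.36 in HPC, and 4.38, 2.04, 0.958 and 0.407 with the GC trend removed. COL5A2 was thus the higher chain in hESC and MES and COL5A1 in HPC, in both versions of the values. In HEP COL5A1 was the higher chain as deposited, while with the GC trend removed both were nearly level (COL5A1 128, COL5A2 123). The removal takes out only differences between libraries along GC content, so an effect common to all libraries would stay in such ratios. COL1A2 over COL1A1 was 6.87, 9.88, 4.59 and 4.18, although a type I molecule holds more of the chain encoded by COL1A1 than of the other. COL4A2 over COL4A1 was 0.895, 0.941, 1.33 and 1.80, and 1.02, 0.988, 1.16 and 1.74 with the GC trend removed, so the higher chain in hESC depended on that correction. COL6A1 over COL6A2 was 0.826, 1.42, 0.597 and 0.332, and COL6A3 over COL6A2 was 0.0286, 0.014, 0.0344 and 0.126. COL9A3 over COL9A2 was 11.5 in hESC and between 0.794 and 1.18 in the other libraries, while COL9A1 over COL9A2 was 6.09 in hESC and at most 0.0452 in the others. COL9A1 over COL9A2 with the GC trend removed was 3.93 in hESC and at most 0.055 in the others, and 0.0384 in HEP, against 0.0221 as deposited. COL3A1 and COL1A2, chains of separate fibrillar collagens, were set against each other in the same way. COL3A1 over COL1A2 was 0.0165, 0.00879, 0.098 and 0.78, closest to 1 in HPC.

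**Figure D3:**
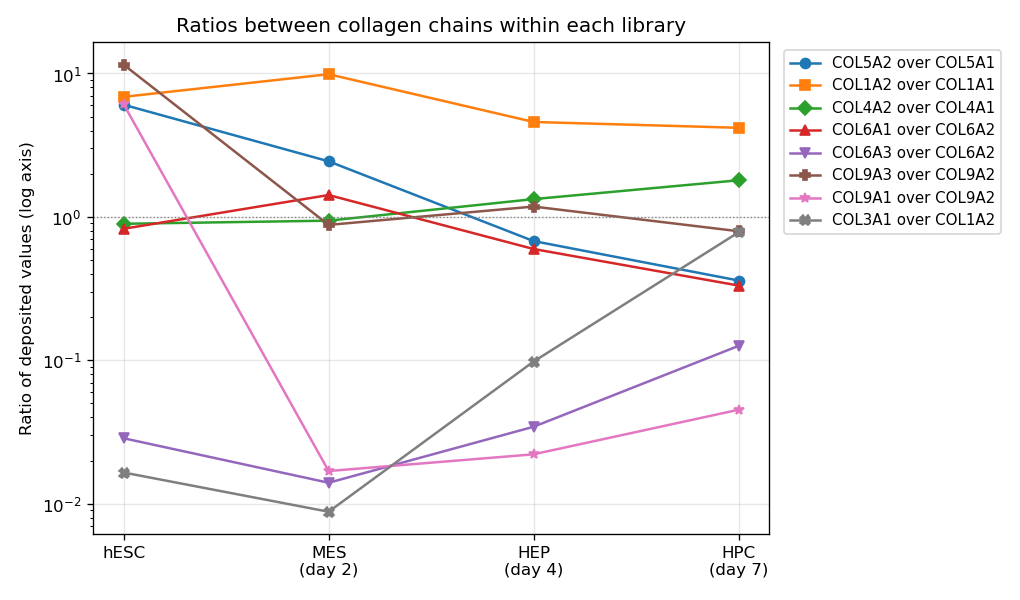
Ratio of the deposited values of pairs of collagen chains within each library (log axis), with stages in order of time; each point is 1 library and the dotted line marks equal values. COL5A2 over COL5A1 is 6.05 in hESC and below 1 in HEP and HPC, and COL3A1 over COL1A2 stands at 0.78 in HPC.

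The comparison of MES with hESC covers the step under activinA and BMP4. A gene was counted as higher or lower when the log2 difference of (value + 1) was 1 or larger in either direction and the higher library held 5 or more. Of 18 members at 5 or more in either library, 12 were higher in MES, 2 lower and 4 neither. That is 66.7% higher and 11.1% lower, against 8.97% and 8.76% of the 7458 genes at 5 or more in either library. The median log2 difference was 1.75 over the members and -0.21 over those genes. The higher members were led by COL5A1 (log2 difference 5.77), COL5A2 (4.88), COL9A2 (4.18), COL13A1 (3.28) and COL6A1 (2.74). By role they were 5 of the fibrillar genes, COL6A1 and COL6A2, COL4A6, COL9A2 and COL9A3, and 2 transmembrane genes. The lower members were COL9A1 (-2.53) and COL14A1 (-2.46). COL14A1 was not called with the GC trend removed, its value in hESC being 4.62, so that 12 members were higher (background 10.7%) and 1 lower (background 5.72%). Median-of-ratios scaling gave 12 higher (background 9.22%) and 2 lower (background 6.88%). COL18A1 (0.16), COL26A1 (0.17), COL4A1 (0.82) and COL4A2 (0.89) were not called, though the last pair passed when each library was set to a common total (1.07 and 1.14).

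The comparison of HEP with MES covers the step under VEGF and bFGF. COL1A1, COL2A1, COL3A1 and both main type IV chains were among the genes higher in HEP, while COL5A2 and COL13A1 were lower under each scaling tried. Of 20 members at 5 or more in either library, 6 were higher in HEP (30%, against 8.08% of 7225 genes) and 4 lower (20%, against 33.9%), with a median log2 difference of 0.32 over the members and -0.39 over all these genes. The higher members were COL3A1 (log2 difference 3.55), COL4A2 (2.34), COL2A1 (2.20), COL1A1 (2.00), COL25A1 (1.97) and COL4A1 (1.85), and each stayed higher with median-of-ratios scaling, a common total and the GC trend removed. The lower members were COL13A1 (-2.63), COL5A2 (-2.11), COL9A2 (-1.39) and COL11A1 (-1.33). The counts of this comparison depended on the scaling. The median of all genes moved by 0.66 with median-of-ratios scaling and by 0.34 with the GC trend removed. With median-of-ratios scaling 10 members were higher (background 20.7%) and 2 lower (background 20.6%), COL1A2, COL6A2, COL6A3 and COL18A1 being added to the higher and COL9A2 and COL11A1 leaving the lower. With the GC trend removed 6 were higher (background 9.49%) and 7 lower (background 12.9%), COL6A1, COL9A3, COL23A1 and COL26A1 being added to the lower and COL11A1 leaving them. The share of higher among the called members was 60% as deposited, 83.3% with median-of-ratios scaling and 46.2% with the GC trend removed. The collagen sum in HEP was 1.06 times that in MES as deposited, 1.57 times with median-of-ratios scaling and 0.961 times with the trend removed, so no direction is given for the sum.

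The comparison of HPC with HEP covers the last step, with the activin and NODAL receptor inhibitor present. In this comparison, as in the others, the stage, the culture factors and the sort differ together, so their parts cannot be told apart. Most collagen genes at 5 or more in either library were lower in HPC. Of 20 members at 5 or more in either library, 14 were lower (70%, against 10.7% of 5894 genes) and 1 was higher (5%, against 8.99%). The median log2 difference was -1.62 over the members and 0.02 over those genes. The lower members were led by COL5A2 (-3.35), COL9A3 (-3.18), COL9A2 (-2.76), COL5A1 (-2.53) and COL1A2 (-2.12), and they included COL4A1 (-2.01), COL4A2 (-1.59) and COL4A6 (-1.39). All 14 were also lower with median-of-ratios scaling (background 11.4%) and with a common total, and 13 with the GC trend removed (background 9.59%), where COL6A2 stood at -0.83. The higher member was COL2A1 (1.89), which was higher under each of these alternatives (background 8.8% with median-of-ratios scaling and 7.25% with the GC trend removed). Not called were COL3A1 (0.83), COL4A5 (0.62), COL6A3 (0.60), COL23A1 (0.23) and COL18A1 (-0.21). The collagen sum in HPC was 0.382 times that in HEP.

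**Figure D4:**
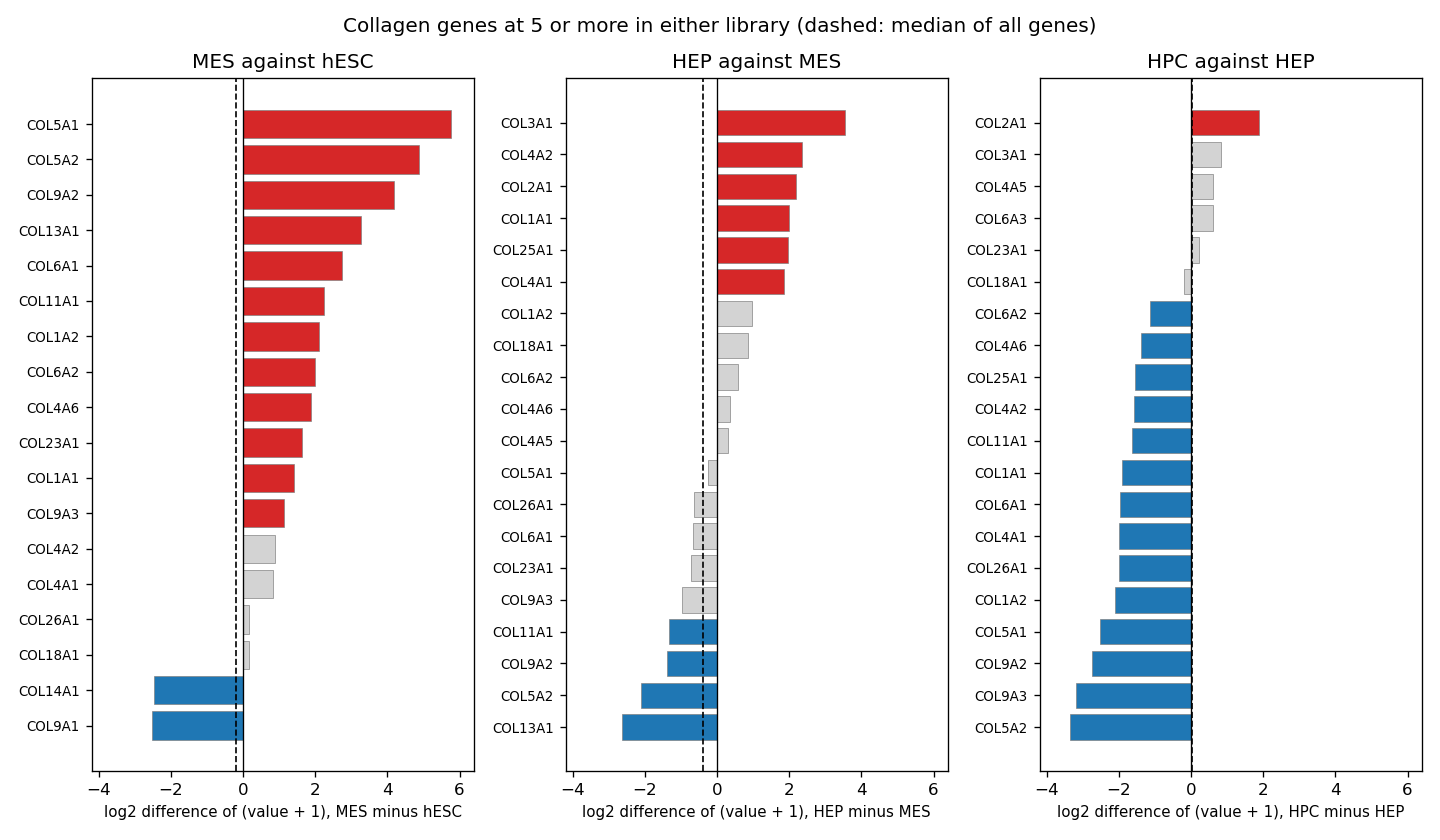
Log2 difference of (value + 1) for the collagen genes at 5 or more in either library, in the 3 successive comparisons, later stage minus earlier stage. Red bars are called higher, blue bars lower and grey bars neither; the dashed line is the median of all genes at 5 or more in either library, and 12 red bars stand in MES against hESC and 14 blue bars in HPC against HEP.

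Across the whole course, HPC kept more collagen message than hESC for some genes and less for others. Of 18 members at 5 or more in either library, 9 were higher in HPC (50%, against 11.1% of 7437 genes) and 4 lower (22.2%, against 37.4%), with a median of 1.04 over the members and -0.57 over those genes. COL3A1 (4.88), COL2A1 (3.71), COL5A1 (2.97) and COL6A3 (2.36) led the higher ones. The lower ones were COL9A1 (-3.24), COL9A3 (-3.04), COL14A1 (-2.78) and COL26A1 (-2.50). In this comparison the median of all genes moved by 0.70 with median-of-ratios scaling and by 0.57 with the GC trend removed, relative to the deposited values. With median-of-ratios scaling 13 members were higher (background 22.2%) and 4 lower (background 21.9%). With the GC trend removed 8 were higher (background 16.3%) and 3 lower (background 17%). COL5A2 (-0.58) and COL6A1 (0.11), both called higher in MES than in hESC, were not called in HPC against hESC. The 4 comparisons share libraries, so their counts are not independent of each other.

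The genes that modify, fold, cut, cross-link and bind collagen were read from 6 lists. Of 53 such genes in the tables, 27 stood at 5 or more in MES or hESC, and 9 of these were higher in MES (33.3%) and 0 lower, with a median log2 difference of 0.49. In HEP against MES 9 of 30 were higher (30%) and 8 lower (26.7%), with a median of 0.40. In HPC against HEP 1 of 25 was higher (4%) and 12 lower (48%), with a median of -0.89, and in HPC against hESC 7 of 26 were higher (26.9%) and 6 lower (23.1%), with a median of 0.65. The shares and medians over all genes in the deposited values are those given above for each comparison. Once the GC trend was removed, 10 of 25 were higher and 0 lower in MES against hESC (background 10.7% and 5.72%), and 6 of 28 were higher and 5 lower in HEP against MES (background 9.49% and 12.9%). In the same values 1 of 26 was higher and 8 lower in HPC against HEP (background 7.25% and 9.59%), and 7 of 24 were higher and 2 lower in HPC against hESC (background 16.3% and 17%). The 1 gene higher in HPC than in HEP was P4HA1 as deposited and TGM2, of the cross-linking list, with the GC trend removed. With median-of-ratios scaling 15 of 29 were higher and 5 lower in HEP against MES (background 20.7% and 20.6%), and 15 of 26 were higher and 2 lower in HPC against hESC (background 22.2% and 21.9%). As in the collagen genes, calls in HPC against HEP were mostly lower.

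Enzymes of the chains were the largest list. P3H2, a prolyl 3-hydroxylase active on type IV collagen, stood at 3.80 in hESC and 89.4 in MES, and 14.4 in HEP and 5.55 in HPC, so it was high in MES. PLOD2, the lysyl hydroxylase of the telopeptides, stood at 4.01, 20.1, 1.75 and 2.13. P4HA1, a catalytic subunit of prolyl 4-hydroxylase, stood at 13.6, 27.9, 3.55 and 8.51. These 3 were called lower in HEP than in MES, also with the GC trend removed. P3H1, the prolyl 3-hydroxylase of fibrillar chains, stood at 11.9, 26.4, 64.2 and 29.2, and PLOD3, a lysyl hydroxylase that also transfers sugar, at 5.35, 9.43, 26.7 and 11.01. Both were highest in HEP, as was COLGALT1, which adds galactose to hydroxylysine (9.54, 18.8, 38.0 and 20.8). P3H1 was called higher in HEP than in MES and lower in HPC than in HEP. Both calls were lost with the GC trend removed (log2 differences 0.98 and -0.94). P3H3, a relative of P3H1, stood at 12.6, 17.1, 43.0 and 18.5, and its calls as higher in HEP than in MES and lower in HPC than in HEP were both lost with the GC trend removed. PLOD1, the lysyl hydroxylase of the helix, stood at 12.3, 31.7, 49.1 and 23.9 and was called higher in MES than in hESC.

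SERPINH1 (HSP47), the chaperone that binds the triple helix, stood at 225 in hESC and 316 in MES, and 682 in HEP and 217 in HPC. It was called higher in HEP than in MES (log2 difference 1.11), though not with the GC trend removed, and lower in HPC than in HEP (-1.65). SPARC, a collagen-binding matrix protein, stood at 28.7, 146, 86.2 and 39.7, so it was highest in MES, and FKBP10, a prolyl isomerase of the collagen-folding machinery, at 43.1, 45.4, 91.2 and 102. SEC23A, a coat protein of the vesicles that leave the endoplasmic reticulum, stood at 24.2, 27.2, 13.8 and 10.6, and its call as lower in HPC than in hESC was lost with median-of-ratios scaling, a common total and the GC trend removed. Among the cross-linkers LOXL2, a lysyl oxidase that acts on type IV collagen, stood at 5.33, 13.7, 35.5 and 7.07, highest in HEP as COL4A1 and COL4A2 were; its call in HEP against MES was lost with the GC trend removed. LOX itself stayed at or under 0.60. PXDN, the peroxidase that cross-links type IV collagen, stood at 13.0, 22.1, 39.6 and 22.8 and was not called in any of the 4 comparisons as deposited. With median-of-ratios scaling PXDN was called higher in HEP than in MES (log2 difference 1.37) and in HPC than in hESC (1.35), and with a common total likewise (1.07 each). BMP1, the protease that removes the C-propeptide of fibrillar chains, was named after its values were seen; it stood at 0.62, 2.44, 11.95 and 7.86.

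Of the collagen receptors and uptake receptors, 3 of 12 reached 5. DDR1, a receptor kinase for several collagens, stood at 23.6 in hESC and 26.9 in MES, and 7.71 in HEP and 2.07 in HPC. ITGB1, the shared beta chain of the collagen-binding integrins, stood at 109, 115, 68.9 and 32.6, while its collagen-binding partners ITGA1, ITGA2, ITGA10 and ITGA11 stayed at or under 1.35. MRC2, which takes up collagen fragments, stood at 5.14, 39.8, 53.0 and 18. DDR1 and ITGB1 were called lower in HPC than in HEP and in hESC. ITGB1 was called higher in HEP than in MES with the GC trend removed (log2 difference 1.10, against -0.73 as deposited) and was not called in HPC against hESC (0.00, against -1.71), so its direction in these comparisons depended on the correction. MRC2 was high in MES and HEP. GP6, the platelet collagen receptor, stayed at or under 0.25, also in HPC.

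**Figure D5:**
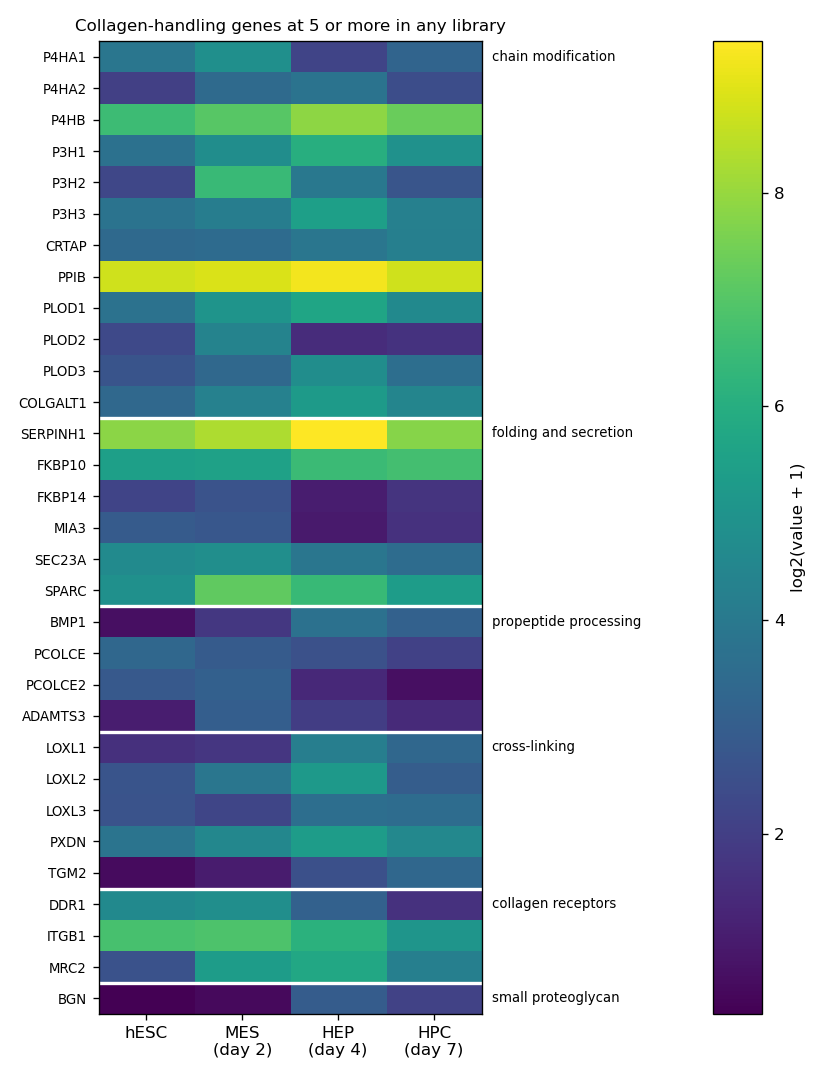
Heat map of log2(value + 1) for the collagen-handling genes at 5 or more in any library, in rows grouped by role, with the 4 libraries in columns in order of time. P3H2 and PLOD2 are brightest in MES, and SERPINH1, P3H1 and LOXL2 in HEP.

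Markers of other cell types moved with some of these results. In bulk libraries fewer cells of a type and less RNA per cell cannot be told apart. The sort antigens were read first. APLNR stood at 0.57 in hESC and 344 in MES, and 250 in HEP and 15.6 in HPC, CD34 at 43.6 in HEP and 18.4 in HPC, and SPN (CD43) at 24.4 in HPC, whereas PECAM1 (CD31) had the low values of 1.83 in HEP and 7.49 in HPC. The 10 endothelial markers summed to 65.3, 87.7, 643 and 262 from hESC to HPC, highest in HEP as COL4A1 and COL4A2 were. KDR (210) and EGFL7 (216) were the largest of them in HEP. They stood at 24.5 and 32.9 in hESC, where 7 of the 10 were under 1. CDH5 stood at 73.5 in HEP and 25.1 in HPC, and 1 of the 10 was under 1 in HEP. In HPC against HEP 4 were called lower and 1 higher, PECAM1. EMCN (0.39 in HPC) was also highest in HPC. The 10 smooth muscle and mesenchyme markers summed to 112, 618, 279 and 47.6, of which TAGLN made up 561 in MES and 12.4 in HPC; MYH11 stayed at or under 0.17, and TCF21 at or under 0.50. In HPC against HEP, 3 of the 10 were called lower, namely TAGLN, CNN1 and RGS5, and 1 higher, ACTA2 at 19.2 in HPC and 6.81 in HEP. PDGFRB stood at 1.98, 8.25, 6.30 and 7.66 from hESC to HPC. The 7 chondrocyte markers summed to 2.06, 60.4, 207 and 50.7, nearly all of it HAPLN1, a hyaluronan link protein. SOX9, the regulator of cartilage collagens, stood at 0.36, 0.79, 1.09 and 0.10, ACAN stayed at or under 0.41 and COMP at or under 0.02. In HPC, where COL2A1 stood at 44.8, HAPLN1 stood at 50.2 and the other 6 markers of the list were under 1. The 5 fibroblast markers summed to 138, 125, 441 and 912, most of the last being S100A4 (862 in HPC), which leukocytes also express; PDGFRA and TCF21 are in this list and in that of smooth muscle and mesenchyme. The 8 endoderm markers summed to 2.55, 62.8, 52.2 and 10.2, with SOX17 and GATA6 the highest of them in MES and HEP. SOX17 stood at 25.1 in MES and 26.9 in HEP, and GATA6 at 35.1 and 12.5. In both libraries 5 of the 8 were under 1, namely FOXA1, FOXA2, HNF4A, AFP and TTR. Neural ectoderm markers (4) summed to at most 25.1, of which OTX2 made up 25.0 in MES, and trophoblast and amnion markers (6) to at most 8.92. In HPC the 8 erythroid and megakaryocyte markers summed to 1484 and the 6 pan-leukocyte markers to 159, and the 6 pluripotency markers to 28.3, against 2150 in hESC. Of the pan-leukocyte markers 5 were called higher in HPC than in HEP, among them SPN, which is also a sort antigen. The remaining marker, PTPRC (CD45), stayed at or under 0.04 in every library. The part of any of these cell types in the collagen values was not tested.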

How the data were processed

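Messenger RNA was profiled in 4 libraries, 1 each from hESC, MES, HEP and HPC. Per the labels' protocols, 2 ug of Trizol-extracted total RNA went into each TruSeq library. The authors deposited 1 normalised signal value per gene and library. The tools named are RSEM, Bowtie and BWA, and the build is hg19, per the submitters' processing notes. For versions, roles, annotation and strand setting, nothing is given in the sources used here. Without a stated strand setting, reads of a collagen gene and of an antisense gene over it cannot be told apart. The depth is unknown, so no interval or floor is given.

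Each table had 17634 rows. In 28 rows a symbol had become a date, and 4 of these, which shared symbols, were left out; 17630 genes remained. Log2 differences of (value + 1) were taken for 4 comparisons. A gene was called at a size of at least 1 with 5 or more in the higher library; backgrounds are over all genes at 5 or more in either library. Folds without a log2 label are ratios of deposited values. Members at 5 or more in any library are given in full, the others by their highest value. Collagen-handling genes are named when called and at 20 or more in a library; the others named were chosen after their values were seen. The members and lists were chosen with earlier results of these data known.

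GC content is the median over protein-coding GENCODE 29 transcripts, matched by symbol or unique synonym for 17428 genes (98.9%) and all 43 members. This median can rest on short transcripts. For COL4A1 it was 51.8% at a median length of 1597 bases, against 60.2% in the longest coding sequence of 1669 codons. Corrected values of such genes carry that limit. Its trend per library was the median log2 deviation in 50 bins, smoothed over 5 bins, and each value was divided by it. GENCODE 29 and the RefSeq promoter table are on GRCh38, not hg19, and coordinates are given only with the sequences read from them. Promoter windows were matched by symbol for 32 members. The calls and the GC correction were run on simulated data with planted changes in well-expressed genes, a simpler setting than these libraries. Calls near the cutoff of 5 were not checked in this way. Python 3.11.15, pandas 2.3.3, numpy 2.4.6, scipy 1.17.1 and biopython 1.88 were used.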

Additional observations from a re-analysis of the deposited data

How the results depend on the processing

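Counts of higher and lower members were recomputed with a pseudocount of 0.1, with no minimum value, with median-of-ratios scaling, with a common total of 1000000 per library and with the GC trend removed. Most stayed within 1.5 times the reported count. The exceptions were as follows. With median-of-ratios scaling, 10 members were higher and 2 lower in HEP against MES. With the GC trend removed, 7 were lower in HEP against MES and 1 in MES against hESC. With no minimum, 2 were higher in HPC against HEP and 7 lower in HPC against hESC. With a common total, 2 were higher in HPC against HEP and 14 in HPC against hESC. For the counts with no minimum and with a common total, the share over all genes was not computed, so they are not read as a result about the members. Of 460 single-gene values under these alternatives, 428 kept their state, whether called higher, called lower or not called. Another 25 gained a call, 7 lost one and 0 passed from a higher to a lower call or back. Values that were not called could change sign. COL5A1 in HEP against MES was -0.26 as deposited and 0.30 with median-of-ratios scaling. For these exceptions the cause was not tested. No paired analysis was possible because each stage has 1 library. With 1 library per stage and unknown depth, the size of a difference cannot be set against replicate or counting error.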
